A study of Mus musculus with 18 samples.

Results

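Myocd, Srf, Carmn and Mir143hg are 4 gene symbols of the smooth muscle regulatory circuit, taken here from an atlas of the mouse urinary bladder. They were chosen by name, with their behaviour in these data already known, from the 29214 symbols of the bulk table. The droplet and spatial tables list 3 of the 4 symbols each: the 5 whole-bladder tables carry Mir143hg and not Carmn, and the nuclei, detrusor and spatial tables carry Carmn and not Mir143hg. The 4 symbols stand for 3 distinct genes, because RefSeq (assembly GRCm38.p6) gives Mir143hg as a synonym of Carmn.

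All 18 samples came from C57BL/6 mice, an inbred laboratory strain, with no genetic change or treatment named in the labels. Bulk RNA was read from intact bladders (3 libraries) and from bladders dissociated into cells (3 libraries), all labelled with 3 females of 12 months. Single nuclei came from 1 library of 2 females and 2 males of 12 months. Cells of the detrusor, the muscular wall, came from 1 library of 3 females of 14 months, and a detrusor-enriched preparation of whole bladder gave 1 library of 2 females and 2 males of 14 months. Whole-bladder cells gave 5 libraries. Those of 22 and 3 months used 3 males each, and the pair of 12-month libraries and the 24-month library used 2 females and 2 males each. Frozen sections were laid on Visium slides, whose printed spots tag RNA by position, and came from bladders labelled with 4 males, 2 sections at 22 months and 2 at 14 months. The labels do not say which animals stand behind which bulk library or section, so the p-values below measure the spread between libraries or sections, which may be technical. After filtering, the 8 droplet libraries held 948 to 8420 cells or nuclei with medians of 1125 to 15752.5 UMIs, and the sections held 937 to 1317 spots.

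On GRCm38.p6, Myocd spans chr11:65173608-65269989 and Srf spans chr17:46546838-46558267. Both are protein-coding. Carmn spans chr18:61645878-61665538 and is annotated as a long noncoding RNA, and the RefSeq intervals of Mir143 and Mir145a lie inside it. The submitters' processing notes name mm10, which is the same build.

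Smooth muscle identity is set by a small number of regulators. SRF, the serum response factor, is a widely expressed transcription factor that binds the CArG box, and it needs partners to choose its targets. Myocardin, the product of Myocd, is a coactivator found in smooth and cardiac muscle that drives contractile genes through SRF, the myocardin-related factors (Mkl1 and Mkl2 in these tables) couple SRF to actin dynamics, and the ternary complex factors (Elk1, Elk3 and Elk4) couple it to growth signals and immediate-early genes. Carmn is a long noncoding RNA of smooth muscle, described as a partner of myocardin, and it is the host gene of miR-143 and miR-145, which hold down repressors of the contractile state.

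Since SRF binds the CArG box, this box was searched for in the 250 bases before each RefSeq start. Its definition reads the same on both strands, so 1 scan covers both, and no other motif was searched. It stood in 482 of 32851 such windows (1.47%), and 2 or more boxes stood in 6 windows (0.018%). The Srf window was among those 6, with boxes that begin 82 and 62 bases before the start. This Srf start lies inside the gene interval given above and not at its 5′ end. Of the contractile genes listed further on, 17 were matched to a window and 4 held a box (Acta1, Actc1, Myl9 and Ldb3), or 23.5%. Of the cytoskeletal targets 5 of 12 matched genes held one (41.7%), of the immediate-early genes 1 of 6 (Egr2) and of the SRF cofactors and partners 2 of 11 (18.2%). None was found for 5 repressors of the contractile programme, 8 genes upstream of Myocd and 10 targets of miR-143 and miR-145. Counted by gene with any of its starts, 439 of 27025 genes held a box (1.62%). The contractile, cytoskeletal and immediate-early lists were chosen as SRF targets, and all lists are short, so these shares are descriptions without a test. No window was matched for Myocd or Carmn. The windows of Srf, of 3 contractile genes and of Egr2, an immediate-early gene, are printed 5′ to 3′ with the box in capitals, to show the box before Srf itself, before contractile genes and before the 1 immediate-early gene that held it. They lie at chr17:46556163-46556412 (minus strand, Srf), chr8:123894776-123895025 (minus, Acta1), chr2:114052876-114053125 (minus, Actc1), chr2:156775214-156775463 (plus, Myl9) and chr10:67537316-67537565 (plus, the farthest upstream of the Egr2 starts whose window held a box). A match describes the letters and is not evidence of binding.
Srf: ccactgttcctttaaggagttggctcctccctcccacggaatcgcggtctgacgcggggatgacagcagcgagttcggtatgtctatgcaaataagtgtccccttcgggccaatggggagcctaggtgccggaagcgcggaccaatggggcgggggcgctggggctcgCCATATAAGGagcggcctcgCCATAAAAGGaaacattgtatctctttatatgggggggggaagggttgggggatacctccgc
Acta1: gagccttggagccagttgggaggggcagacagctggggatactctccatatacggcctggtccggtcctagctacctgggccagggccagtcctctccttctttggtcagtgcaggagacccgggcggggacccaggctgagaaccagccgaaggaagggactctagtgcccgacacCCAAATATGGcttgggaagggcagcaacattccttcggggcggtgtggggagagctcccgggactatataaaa
Actc1: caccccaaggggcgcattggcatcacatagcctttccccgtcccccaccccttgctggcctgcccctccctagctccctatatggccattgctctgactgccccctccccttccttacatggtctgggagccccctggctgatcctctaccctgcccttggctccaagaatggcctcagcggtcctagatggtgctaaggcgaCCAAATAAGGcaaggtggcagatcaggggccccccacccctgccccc
Myl9: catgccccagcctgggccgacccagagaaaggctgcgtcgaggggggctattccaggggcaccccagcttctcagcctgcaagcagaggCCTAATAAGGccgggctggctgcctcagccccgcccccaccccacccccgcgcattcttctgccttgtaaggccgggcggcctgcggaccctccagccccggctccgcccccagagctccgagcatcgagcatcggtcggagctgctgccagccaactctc
Egr2: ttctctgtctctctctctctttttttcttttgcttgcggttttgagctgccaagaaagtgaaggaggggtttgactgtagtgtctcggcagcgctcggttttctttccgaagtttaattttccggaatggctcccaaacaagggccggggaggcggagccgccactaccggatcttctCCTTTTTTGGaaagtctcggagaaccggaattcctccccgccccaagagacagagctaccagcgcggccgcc

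In the bulk table Carmn and Mir143hg had the same read count in 6 of 6 libraries: 1053, 3089 and 1050 reads in intact bladder and 49, 46 and 42 in dissociated bladder. They are 1 measurement printed under 2 names, and their values are given once below. The duplication is general in this table. Among 16021 symbols with at least 100 reads in all, 416 groups, holding 832 symbols, shared all 6 counts, and in 327 of those groups RefSeq gives one symbol as a synonym of another.

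Intact bladder held far more Carmn and Myocd RNA than dissociated bladder, and slightly more Srf. The bulk libraries held between 23083752 and 68760791 reads, and levels are given as CPM, the reads of a gene after every library is scaled to one common total. Carmn stood at 45.6, 44.9 and 40.4 CPM in intact bladder and at 1.74, 1.70 and 1.74 CPM after dissociation. The groups were far apart, at 43.6 ± 2.84 against 1.73 ± 0.0222 CPM (mean ± SD, n = 3 each), a level 25.3-fold lower after dissociation. Myocd stood at 84.0, 106 and 79.1 CPM in intact bladder and at 9.89, 7.62 and 7.56 CPM after dissociation. Its means were 89.9 ± 14.6 and 8.36 ± 1.33 CPM (SD, n = 3 each), so 9.30% of the intact level was left. Srf, which many cell types express, stood at 154, 142 and 160 CPM in intact bladder and at 111, 120 and 120 CPM after dissociation. Its means were 152 ± 8.94 and 117 ± 5.11 CPM (SD, n = 3 each), so 77.1% of the intact level was left. The groups did not overlap for any of the 3 genes.

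The fitted log2 differences, dissociated minus intact, were -4.55 for Carmn (SE 0.11), -3.31 for Myocd (SE 0.16) and -0.26 for Srf (SE 0.08). The members were chosen from this contrast, so these values are a description and carry no test. Over the 16538 genes tested, 59.2% were called by edgeR at an adjusted p under 0.05, 31.3% lower and 27.9% higher after dissociation. Groups without overlap were common too: 67.9% of the genes tested had none, 42.3% lower and 25.6% higher. The median log2 difference of all genes was -0.03, and it was -0.14 when libraries were scaled by their totals alone. Under that scaling Srf stood at -0.37, and all 3 genes were lower under every scaling tried.

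**Figure D1:**
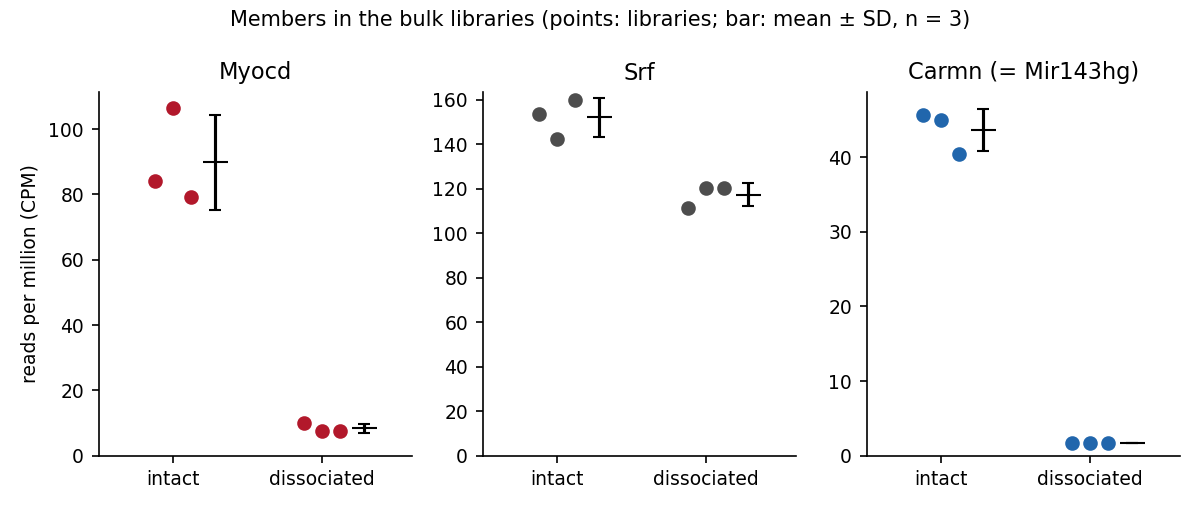
CPM of Myocd, Srf and the Carmn entry (vertical axes, each from 0) in 3 intact and 3 dissociated bulk libraries (horizontal axis), with points for libraries and bars for mean ± SD. After dissociation Carmn and Myocd stand close to 0, while Srf stands between 111 and 120 CPM.

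Markers of other cell types moved in the same contrast. All 10 smooth muscle markers (Acta2, Myh11, Actg2, Cnn1, Des, Tagln, Smtn, Synpo2, Lmod1 and Mylk) were called lower, and none was at 0 in any library. Their summed level ran from 46598 to 48587 CPM in intact bladder and from 2583 to 3843 CPM after dissociation, so 6.90% was left, against 9.30% for Myocd and 3.96% for Carmn. The 10 fibroblast markers were all called higher, with a summed level of 13836 to 16973 CPM before and 25280 to 37597 CPM after. Of 10 urothelial markers, 5 were called lower and 2 higher, with sums of 5686 to 6517 and 3337 to 5012 CPM. Of 8 pericyte markers, 4 were called lower and 2 higher, with sums of 864 to 911 and 572 to 661 CPM. Over all genes tested 31.3% were called lower and 27.9% higher, so the shares of urothelial and pericyte markers called higher were not above that of all genes. All 5 adipocyte markers were called lower, with 1 of them at 0 in some library, from sums of 251 to 288 CPM to sums of 37.0 to 44.8 CPM. All 5 erythroid, all 8 macrophage or monocyte and 7 of 8 blood endothelial markers were called higher. The summed cardiac and skeletal muscle lists fell to 7.57% and 27.6% of intact. Of 3 cardiac markers tested 1 was called lower and 1 higher, and of 5 skeletal markers 1 lower and 2 higher. In bulk RNA, fewer smooth muscle cells and less RNA per cell cannot be told apart, and the part of these shifts in the members' values was not tested.

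Partners of SRF were called in both directions. Of 12 SRF cofactors and partners tested, 6 were called higher and 3 lower by edgeR (27.9% and 31.3% of all genes tested), so the share called lower was near that of all genes, with a median log2 difference of 0.20 against -0.03 for all genes. Mkl1, which encodes MRTF-A, was 47.6 ± 6.00 CPM in intact and 49.2 ± 4.05 CPM in dissociated bladder (log2 0.16, SE 0.11, adjusted p = 0.226), and the libraries overlapped. Mkl2, which encodes MRTF-B, had a log2 difference of 0.33 (SE 0.11, adjusted p = 0.0379) with overlapping libraries, at 64.5 ± 8.24 and 75.0 ± 6.16 CPM. Mamstr, another coactivator related to myocardin, was scarce at 4.80 ± 0.627 and 6.46 ± 1.02 CPM (log2 0.54, SE 0.19, adjusted p = 0.0371). Its libraries did not overlap. Beside a log2 difference of -3.31 for Myocd, the differences of these 3 relatives were thus all above 0.

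Among the ternary complex factors, Elk4 rose from 44.5 ± 2.61 to 74.2 ± 8.14 CPM (log2 0.85, SE 0.09, adjusted p = 1.87e-04) without overlap. Elk3 had a log2 difference of 0.23 (adjusted p = 0.0385) and Elk1 of 0.17 (adjusted p = 0.197), and both had overlapping libraries. The calls of Mkl2, Mamstr and Elk3 were marginal. Leaving out a single library lost the call of Mkl2 in 4 of 6 fits (intact 1 or 3, dissociated 1 or 3, log2 0.24 to 0.36), of Mamstr in 5 of 6 (all but dissociated 2, log2 0.43 to 0.60) and of Elk3 in 5 of 6 (all but dissociated 3, log2 0.17 to 0.27). The 3 partners called lower were Csrp1 (log2 -2.90, SE 0.09), a LIM protein that bridges SRF and its partners, Fhl2 (-1.67, SE 0.12), a LIM protein that binds SRF, and Hopx (-0.99, SE 0.13), which binds SRF and limits its activity. Scai, a nuclear repressor of the MRTFs, rose by 1.10 (SE 0.16, adjusted p = 7.52e-04), and Csrp2 rose by 0.44 (SE 0.11, adjusted p = 0.00955).

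All 20 contractile genes were called lower (31.3% of all genes tested), with a median log2 difference of -3.55 and a range from -5.39 to -2.46. Of these 20 genes, 10 are also smooth muscle markers. The falls were largest for Actc1 (-5.39, SE 0.35), the cardiac actin, for Acta1 (-5.03, SE 0.40), the skeletal actin, and for Actg2 (-4.36, SE 0.20), the enteric smooth muscle actin. Actg2 went from 3900 ± 334 to 177 ± 42.9 CPM. Actin genes are near-identical in their coding parts, and how reads shared between them were counted is not given in the sources used here. All 10 immediate-early genes were called higher (27.9% of all genes tested), with a median of 6.05 and a range from 1.88 to 9.47. Fosb went from 5.38 ± 3.68 to 3285 ± 566 CPM (log2 9.47, SE 0.74, adjusted p = 4.34e-05), Fos from 21.6 ± 9.14 to 2561 ± 479 CPM (7.02, SE 0.41) and Egr2 from 1.25 ± 0.409 to 123 ± 17.5 CPM (6.83, SE 0.23). These 3 encode transcription factors, and immediate-early genes are transcribed within minutes of a stimulus. Srf itself was lower in the same libraries.

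Of 15 cytoskeletal targets that depend on the MRTFs, 7 were called lower and 5 higher (31.3% and 27.9% of all genes tested), with a median of -0.52. The share called higher was near that of all genes. Flna, an actin crosslinker, fell by 2.51 (SE 0.11), Tgfb1i1, the focal adhesion protein Hic-5, fell by 1.98 (SE 0.08) and Fhl1, a LIM protein of muscle, fell by 1.92 (SE 0.11). Cyr61, a matricellular protein, rose by 3.66 (SE 0.28), Actg1, the cytoplasmic gamma actin, rose by 1.53 (SE 0.16) and Tpm4, a nonmuscle tropomyosin, rose by 1.34 (SE 0.14).

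Repressors of the contractile programme included 4 genes called higher and 2 lower of 8 tested (27.9% and 31.3% of all genes tested), with a median of 0.79. Klf4, which opposes myocardin at contractile promoters, rose from 72.6 ± 15.5 to 1180 ± 58.3 CPM (log2 4.14, SE 0.17, adjusted p = 2.14e-06). Klf5, a related factor of growing cells, rose by 0.96 (SE 0.20), Msx2, a homeobox repressor of myocardin, fell by 1.04 (SE 0.14) and Foxo4 fell by 0.60 (SE 0.09). Of 10 genes acting upstream of Myocd, 6 were called higher and 1 lower, with a median of 0.42. Tgfb1 rose by 1.18 (SE 0.10), the Notch ligand Jag1 by 0.87 (SE 0.12) and Smad2 by 0.56 (SE 0.12), and Tead1 fell by 0.48 (SE 0.17, adjusted p = 0.0388). The call of Tead1 was lost in 4 of 6 fits with 1 library left out (intact 2 or 3, dissociated 1 or 2, log2 -0.46 to -0.33). Among 12 described targets of miR-143 and miR-145, whose host transcript is Carmn, 10 were called higher and 1 lower, with a median of 0.65. Beside Klf4, Fscn1, an actin bundler, rose by 1.67 (SE 0.20) and Ace, the angiotensin-converting enzyme, by 1.14 (SE 0.11). Camk2d, a calcium-dependent kinase, fell by 0.93 (SE 0.09). Mature miR-143 and miR-145 were not analysed here.

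**Figure D2:**
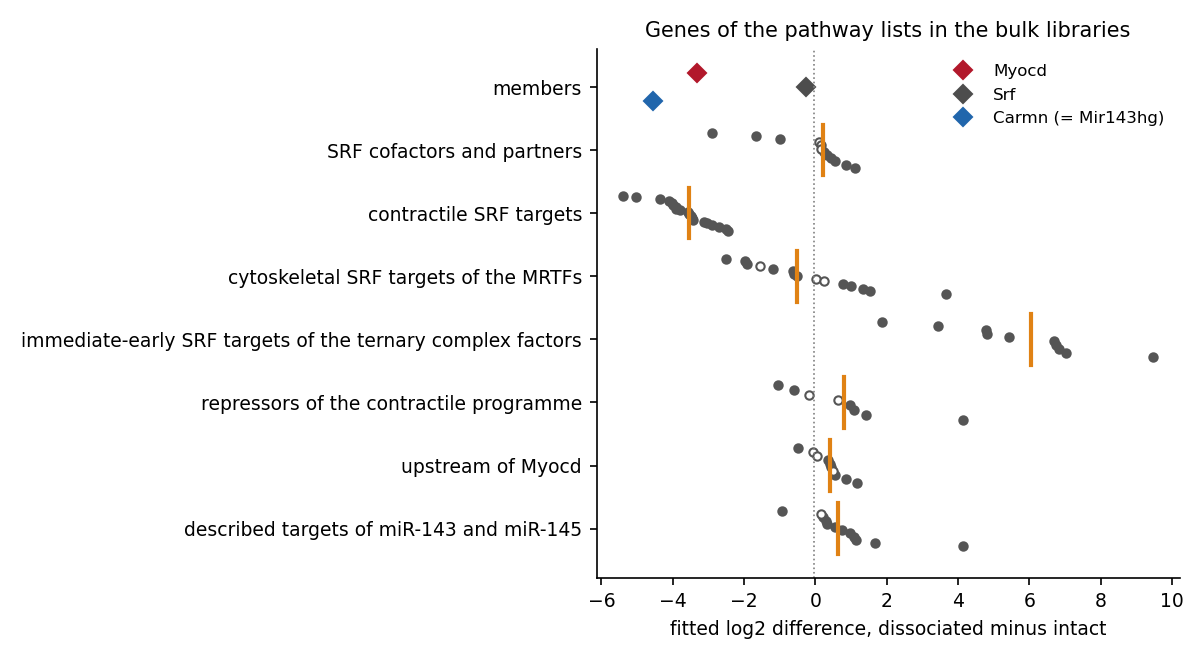
Fitted log2 difference, dissociated minus intact (horizontal axis), of the members (diamonds) and of each gene of 7 lists (circles, filled where the adjusted p was under 0.05). Orange bars are list medians and the dotted line is the median of all genes (-0.03): Carmn and Myocd lie with the contractile genes, and Srf lies near the dotted line.

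In single nuclei Carmn was higher in smooth-muscle-like nuclei than in the others. Clustering without the members among its variable genes gave 1384 smooth-muscle-like nuclei of 3375 kept, in 3 clusters, and the levels below are sums over nuclei with an exact 95% Poisson interval for counting error, since there was 1 library. Carmn reached 4590 CPM (4493 to 4688) in the smooth-muscle-like nuclei against 70.2 CPM (61.2 to 80.0) in the other 1991. When the same number of nuclei was taken by their own share of smooth muscle marker UMIs, the levels were 4053 and 481 CPM. Myocd reached 114 CPM (99.0 to 130) against 10.1 CPM (6.92 to 14.3). Srf reached 67.8 CPM (56.5 to 80.7) against 33.2 CPM (27.1 to 40.2). Of the other 1991 nuclei, 1245 were urothelial-like, and Srf in some other classes was close to smooth muscle. As log2(CPM + 1) without mitochondrial genes, Srf was 6.149 in smooth-muscle-like and 6.142 in mesothelial-like nuclei. It was 6.017 in blood-endothelial-like, 5.857 in macrophage-like or monocyte-like, 4.988 in fibroblast-like and 4.942 in urothelial-like nuclei. The classes are clusters set against the rest, so all these levels are descriptions with no test.

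Carmn UMIs were found in 69.7% of the smooth-muscle-like nuclei (965 of 1384, median 1134.5 UMIs) and in 2.97% of urothelial-like nuclei (37 of 1245, median 1373 UMIs), a cell type that should lack it. After thinning every nucleus to 500 UMIs the shares were 61.8% and 1.61%. Myocd UMIs were found in 13.2% and 1.45% of the same nuclei. Carmn stood at 421 CPM in 33 Schwann-like nuclei (15 UMIs in 4 of them), at 225 CPM in 102 mesothelial-like nuclei, at 197 CPM in 398 fibroblast-like nuclei, at 154 CPM in 104 blood-endothelial-like nuclei and at 151 CPM in 70 macrophage-like or monocyte-like nuclei, the last 4 with overlapping intervals, and it was lowest at 26.3 CPM in urothelial-like nuclei. Contractile RNA was present in all of these classes: the smooth muscle list summed to between 5581 CPM (urothelial-like) and 20658 CPM (mesothelial-like) outside smooth muscle. Myocd rested on few UMIs there, with 6 in mesothelial-like nuclei (50.1 CPM, 18.4 to 109), 2 in blood-endothelial-like (20.6 CPM), 6 in fibroblast-like (13.8 CPM) and 18 in urothelial-like nuclei (7.64 CPM). None was found in 70 macrophage-like or monocyte-like nuclei, which allows a share of up to 4.29% of them with a UMI.

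The 3 smooth-muscle-like clusters of nuclei differed in Carmn more than in Myocd. Cluster 0 (533 nuclei), led by Carmn, Col25a1, Atcayos and Chrm3, held 6493 CPM of Carmn, and cluster 5 (375 nuclei), led by Carmn, Col25a1 and Rbm24, held 5026 CPM. Cluster 10 (476 nuclei), led by P2rx1, Flnc, Myh11 and Pgm5, held 684 CPM (615 to 758). The contractile list stood at 37410 CPM in cluster 0, 33559 CPM in cluster 5 and 94523 CPM in cluster 10, so the cluster lowest in Carmn was highest in the list. Carmn was thus equal to 17.4%, 14.98% and 0.723% of the list in the 3 clusters. Myocd was similar in all 3, at 107, 104 and 134 CPM with overlapping intervals, and Srf was 46.4, 44.9 and 124 CPM (95.8 to 158 in cluster 10). Cluster 10 had the lowest depth, with a median of 767 UMIs against 1742 in cluster 0 and 870 in cluster 5, and the part of depth in these values was not tested.

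In detrusor cells the smooth-muscle-like class as a whole held the highest Myocd and Carmn levels of the named classes, with a lower Carmn level than in the nuclei. In the detrusor-only library 427 of 5379 cells were smooth-muscle-like, and the most numerous class was fibroblast-like (3208 cells), so the cells recovered were not muscle alone. Carmn stood at 157 CPM (146 to 168) in smooth-muscle-like cells and at 12.4 CPM (11.3 to 13.5) in the rest. Myocd stood at 75.5 CPM (68.1 to 83.6) and 1.63 CPM (1.26 to 2.07), and Srf at 49.0 CPM (43.0 to 55.5) and 15.4 CPM (14.2 to 16.7). Myocd UMIs were found in 51.5% of smooth-muscle-like cells (median 9512 UMIs) and 0.717% of fibroblast-like cells (median 8875.5 UMIs).

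In the detrusor-enriched library 180 of 5158 cells were smooth-muscle-like. Carmn stood at 245 CPM (221 to 270) there and at 16.1 CPM in the rest, Myocd at 111 CPM (94.8 to 129) and 1.45 CPM, and Srf at 51.5 CPM (40.8 to 64.1) and 26.3 CPM. Across the nuclei and both detrusor libraries, the smooth-muscle-like level thus ran from 75.5 to 114 CPM for Myocd, from 49.0 to 67.8 CPM for Srf and from 157 to 4590 CPM for Carmn. The class pools clusters that differ in Carmn, described above for the nuclei and below for the detrusor cells. The part of this mix of clusters in the ranges was not tested. The libraries also differ in preparation, age and sex mix, which cannot be told apart.

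Pericyte-like cells, the contractile cells of small vessels, also held Carmn and Myocd. In the detrusor-only library 165 of them held Carmn at 91.2 CPM (73.1 to 112), Myocd at 12.4 CPM (6.42 to 21.7) and Srf at 22.8 CPM (14.3 to 34.5). In the detrusor-enriched library 96 of them held Carmn at 176 CPM (144 to 213), Myocd at 23.2 CPM (12.7 to 39.0) and Srf at 49.8 CPM (33.6 to 71.0). Against the smooth-muscle-like cells of the same library, Carmn in pericyte-like cells was lower by less than Myocd was. Their smooth muscle list stood at 12325 and 12239 CPM. Fibroblast-like cells held Carmn at 12.4 and 21.9 CPM and Myocd at 0.827 and 1.55 CPM. Unnamed cluster 18 of the detrusor-only library (54 cells led by Tenm2, Sfrp5 and Apod) held Carmn at 68.1 CPM (46.0 to 97.2, 30 UMIs) with no Myocd UMI, and its smooth muscle list stood at 1181 CPM. In T-like or NK-like cells of the detrusor-enriched library, all 17 Carmn UMIs came from 1 of 63 cells.

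**Figure D3:**
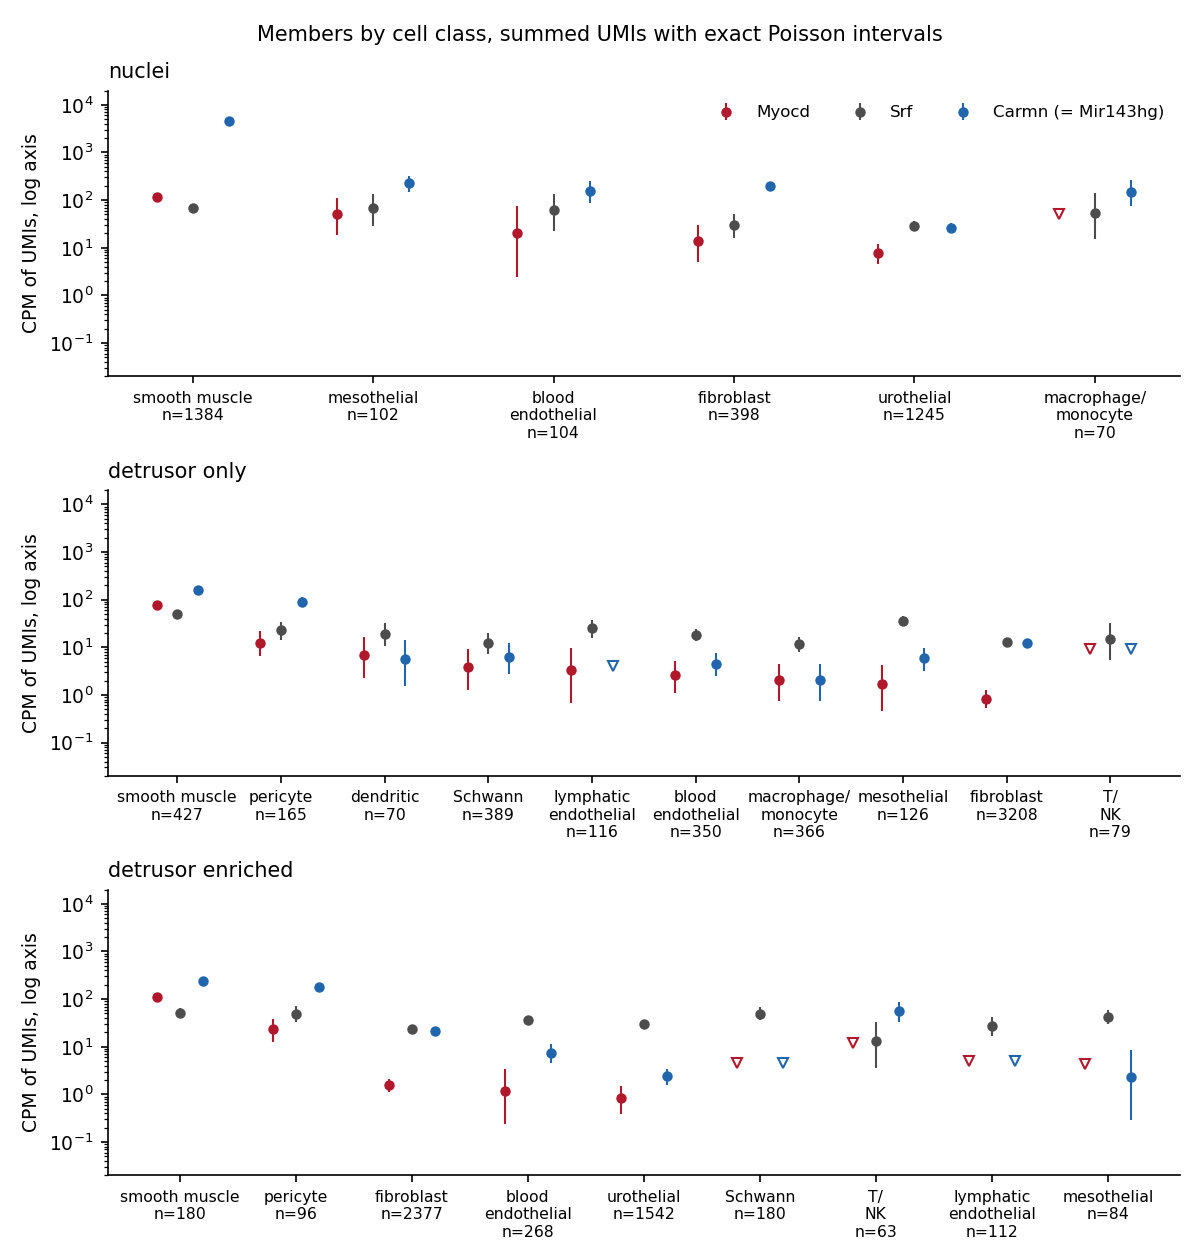
CPM of Myocd, Srf and Carmn (vertical log axes) summed over the cells of each class of at least 50 cells (horizontal axis, with the number of cells) in the nuclei, detrusor-only and detrusor-enriched libraries. Points carry exact 95% Poisson intervals and open triangles mark the upper limit where no UMI was found. Myocd and Carmn were highest in smooth-muscle-like cells in the detrusor libraries, while Srf varied least between classes. In the detrusor-enriched library the Srf interval of smooth-muscle-like cells overlapped those of other classes, among them the pericyte-like, Schwann-like and mesothelial-like cells.

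Smooth-muscle-like detrusor cells fell into 2 clusters in each library. In the detrusor-only library, cluster 9 (217 cells), led by Cnn1, Actg2 and Acta2, held Carmn at 197 CPM (182 to 213), and cluster 14 (210 cells), led by Pln, Acta2 and Tagln, held it at 84.8 CPM (71.8 to 99.4). Srf was 59.1 and 30.9 CPM in the same clusters, while Myocd was 69.8 CPM (60.9 to 79.6) and 85.9 CPM (72.8 to 101). In the detrusor-enriched library, cluster 15 (111 cells), also led by Pln, held Carmn at 131 CPM (112 to 153), and cluster 17 (69 cells), led by Cnn1, Des and Actg2, held it at 703 CPM (613 to 803). Cluster 17 was shallow, with a median of 1149 UMIs against 11097 in cluster 15. In both libraries the cluster led by Cnn1 thus held more Carmn than the cluster led by Pln. The clusters led by Pln were not above the pericyte-like cells of the same library in Carmn, at 84.8 against 91.2 CPM with overlapping intervals and at 131 against 176 CPM. The pericyte list stood at 1913 and 2058 CPM in the clusters led by Pln and at 194 and 311 CPM in those led by Cnn1.

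**Figure D4:**
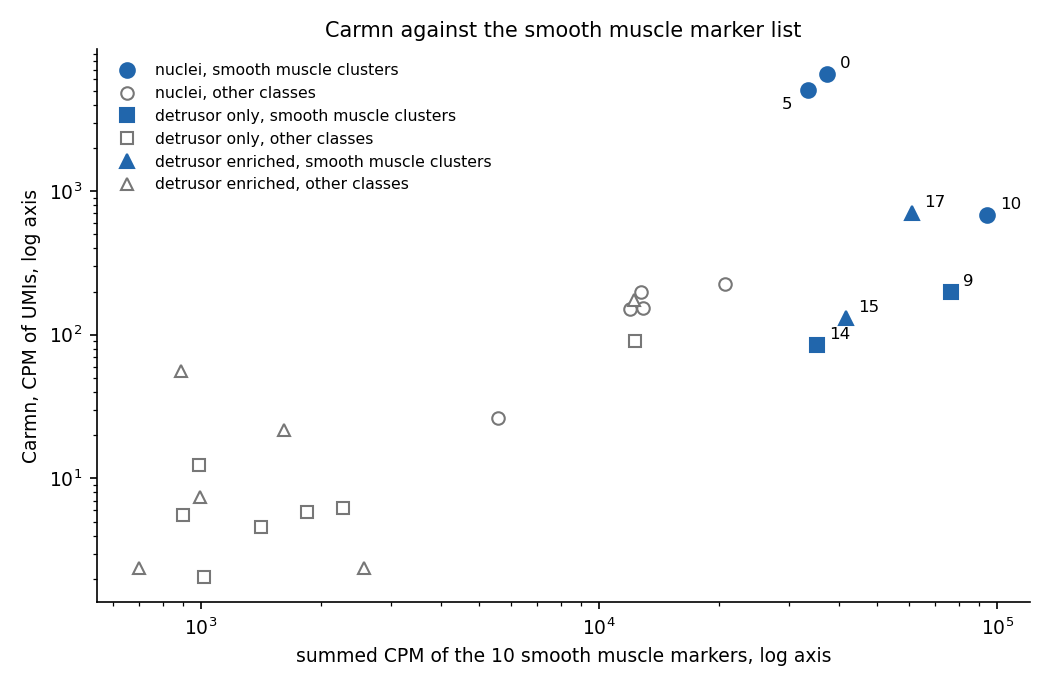
Carmn (vertical log axis, CPM) against the summed CPM of the 10 smooth muscle markers (horizontal log axis) in each cell class or smooth-muscle-like cluster of at least 50 cells with a Carmn UMI. Filled symbols are the smooth-muscle-like clusters with their numbers: clusters 0 and 5 of the nuclei stand at 6493 and 5026 CPM, and cluster 10, with the highest marker sum, at 684 CPM.

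The other SRF partners differed among themselves across classes. In smooth-muscle-like nuclei Mkl2 stood at 23.5 CPM against 65.4 CPM in the other nuclei, Elk4 at 40.6 against 102 CPM and Elk3 at 11.2 against 40.1 CPM, and the intervals of each pair were apart. Mkl1 was 23.0 CPM (16.6 to 30.9) against 15.8 CPM (11.7 to 20.8), with overlapping intervals, and Elk1 was 19.2 CPM (13.5 to 26.6) against 8.53 CPM (5.62 to 12.4). In the detrusor-only library Mkl2 was 14.1 against 27.5 CPM, Elk4 14.7 against 29.2 CPM and Elk3 16.7 against 36.9 CPM, while Mkl1 was 12.9 against 14.4 CPM with overlapping intervals and Elk1 10.7 CPM (7.998 to 13.97) against 6.78 CPM (6.01 to 7.62). In the detrusor-enriched library Mkl2 was 13.5 against 25.5 CPM, Elk4 32.2 against 42.8 CPM and Elk3 20.6 against 34.0 CPM, while Mkl1 was 21.2 CPM (14.6 to 29.8) against 12.4 CPM (11.4 to 13.4) and Elk1 11.6 against 9.10 CPM with overlapping intervals. Mkl2, Elk3 and Elk4 were thus lower in smooth-muscle-like cells in all 3 libraries, with overlapping intervals for Elk4 in the last, and Elk1 stood higher in them in all 3, with overlapping intervals in the last.

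Whole-bladder libraries contained almost no Myocd. The 5 libraries held 7 UMIs (22 months), 8 (3 months), 5 and 1 (12 months) and 6 (24 months) in all kept cells, and no cluster of any of them was named smooth-muscle-like. Other clustering settings did name such clusters: 562 cells at 22 months with barcodes of at least 1000 UMIs (Myocd 1.27 CPM, Mir143hg 13.1 CPM), 110 cells at 3 months (no Myocd UMI, Mir143hg 60.3 CPM) and 13 in the first 12-month library (Myocd 49.8 CPM) at Leiden resolution 2, and 6 in the second 12-month library (1 Myocd UMI) and 59 at 24 months (Myocd 4.56 CPM) with doublets kept. Mir143hg, the name these tables use for Carmn, had 166, 103, 37, 8 and 68 UMIs in the same order, and Srf had 443, 182, 866, 360 and 1007. In the 3-month library 7 of the 8 Myocd UMIs lay in fibroblast-like cells. In the 22-month library 5 of 7 came from 122 pericyte-like cells, whose smooth muscle list stood at 33411 CPM, in the first 12-month library 4 of 5 came from an unnamed cluster of 13 cells led by Acta2, Tagln and Myl9, and in the 24-month library 3 of 6 came from an unnamed cluster of 20 cells led by Tagln, Des and Acta2, with 2 in fibroblast-like cells and 1 in urothelial-like cells. The 1 UMI of the second 12-month library came from an unnamed cluster of 106 cells led by Acta2, Rrad and Sncg, whose smooth muscle list stood at 397 CPM. Its urothelial list stood at 9100 CPM, and Upk3bl, Gsdmc2 and Krt6a were also among its leading genes. The clusters of 13 and 20 cells scored 1.0 for both smooth muscle and pericyte, and the naming rule left them unnamed. Their smooth muscle lists stood at 32169 and 35019 CPM. Urothelial-like cells of the first 12-month library had no Myocd UMI in 2093 cells, which allows a share of up to 0.143% of cells with a UMI. Mir143hg stood at 9.85 CPM in fibroblast-like cells of the 22-month library, 15.8 CPM at 3 months, 11.3 and 1.598 CPM at 12 months and 13.2 CPM at 24 months, and at 0.220 CPM or below in urothelial-like cells of all 5. Srf was between 17.2 and 31.4 CPM in the urothelial-like cells of the 5 libraries.

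Over all 49 combinations of a library and a named class with at least 50 cells, the 3 smooth-muscle-like points held the highest Myocd levels (75.5 to 114 CPM), and the 46 other points ran from 0 to 50.1 CPM with 23 of them at 0. The 3 pericyte-like points were at 12.4 to 23.7 CPM and the 8 fibroblast-like points had a median of 0.653 CPM. The highest pericyte-like point, of the 22-month library, had a smooth muscle list of 33411 CPM and a pericyte list of 3847 CPM. In the pericyte-like points of the detrusor libraries the smooth muscle list was 12325 and 12239 CPM, and the pericyte list 6192 and 6248 CPM. For Carmn the smooth-muscle-like points (157 to 4590 CPM) overlapped the range of the rest (0 to 225 CPM). For Srf they were 49.0 to 67.8 CPM against 0 to 66.8 CPM with a median of 23.3 CPM, so the ranges overlapped.

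The genes whose log2(CPM + 1) profile over these 49 points was most like that of Myocd were Hspb7 (Pearson r = 0.905), a small heat shock protein of muscle, Cacna1c (0.900), the L-type calcium channel, Ldb3 (0.885), a Z-line protein, Atcayos (0.885) and Kcnmb1 (0.880), the beta subunit of the large-conductance potassium channel, among 9676 genes with a median r of 0.126. Those most like Carmn were Adcy5 (0.905), an adenylyl cyclase, Dmpk (0.889), a protein kinase of muscle, Fbxl22 (0.862), Tpm1 (0.862), a tropomyosin, and Jph2 (0.860), a junctional membrane protein (median 0.164). Those most like Srf were Prrc2a (0.797), Pik3r4 (0.772), Ddx50 (0.752), Yme1l1 (0.751) and Skiv2l2 (0.751), with a median of 0.151. Between the members r was 0.820 for Myocd and Carmn, 0.531 for Srf and Carmn and 0.475 for Myocd and Srf. The points share libraries and depth, so these values are descriptions.

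In the tissue sections all 3 genes were higher in the spots richest in contractile RNA than in the poorest. Spots with at least 500 UMIs were ranked within each section by the share of their UMIs from the 10 smooth muscle markers and divided into 3 groups of about equal size (lowest, middle and highest), and a spot covers a small region that can hold several cells. Sections are given in the order 22 months (1 and 2) and 14 months (1 and 2). Myocd stood at 0.294, 0.235, 1.14 and 0.663 CPM in the lowest group and at 9.003, 7.05, 9.30 and 9.29 CPM in the highest. Carmn stood at 0.441, 0.235, 0.838 and 0.663 CPM and at 15.2, 13.7, 11.6 and 11.7 CPM. Srf stood at 39.0, 30.3, 70.6 and 46.6 CPM and at 176, 152, 162 and 185 CPM. The highest group exceeded the lowest by 8.14 to 30.6-fold for Myocd, 13.8 to 58.1-fold for Carmn and 2.30 to 5.00-fold for Srf, in 4 of 4 sections each. The middle group did not always lie between them: in the first 14-month section it held Myocd at 10.1 CPM, with an interval that overlapped that of the highest group. Few single spots held either Myocd or Carmn: in the highest group, 8.96% to 10.9% of spots had a Myocd UMI and 12.6% to 16.9% a Carmn UMI. The lowest group of the first 22-month section held 6 Myocd and 9 Carmn UMIs in all, so these folds rest on few counts. Median ratios were 22.0 for Myocd, 26.1 for Carmn and 4.24 for Srf, and 8.97, 9.48 and 3.20 with 2 equal groups of spots.

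In the middle group the sections differed. Myocd was 5.15, 0.954, 10.1 and 6.53 CPM there, and Srf was 137, 60.3, 145 and 127 CPM, with the second 22-month section lowest in both. The middle group of that section also held the least contractile RNA, with a median marker share of 1.69% against 2.92% to 4.35% in the others. The partners of SRF again ran in both directions. From the lowest to the highest group Mkl2 went from 36.1 to 44.1 CPM down to 13.7 to 17.2 CPM and Elk4 from 54.9 to 61.9 CPM down to 32.3 to 36.3 CPM (ranges over the 4 sections), while Mkl1 went from 24.2 to 35.7 CPM up to 41.2 to 53.1 CPM and Elk1 from 6.56 to 8.22 CPM up to 12.9 to 17.95 CPM. Depth moved with these ranks, with a median of 30360 to 43914 UMIs per spot in the lowest group and 11622 to 14835 in the highest. The summed level of the urothelial markers moved with them too, at 14277 to 16411 CPM in the lowest group and 2499 to 4633 CPM in the highest, lower in 4 of 4 sections. The part of either in these results was not tested.

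**Figure D5:**
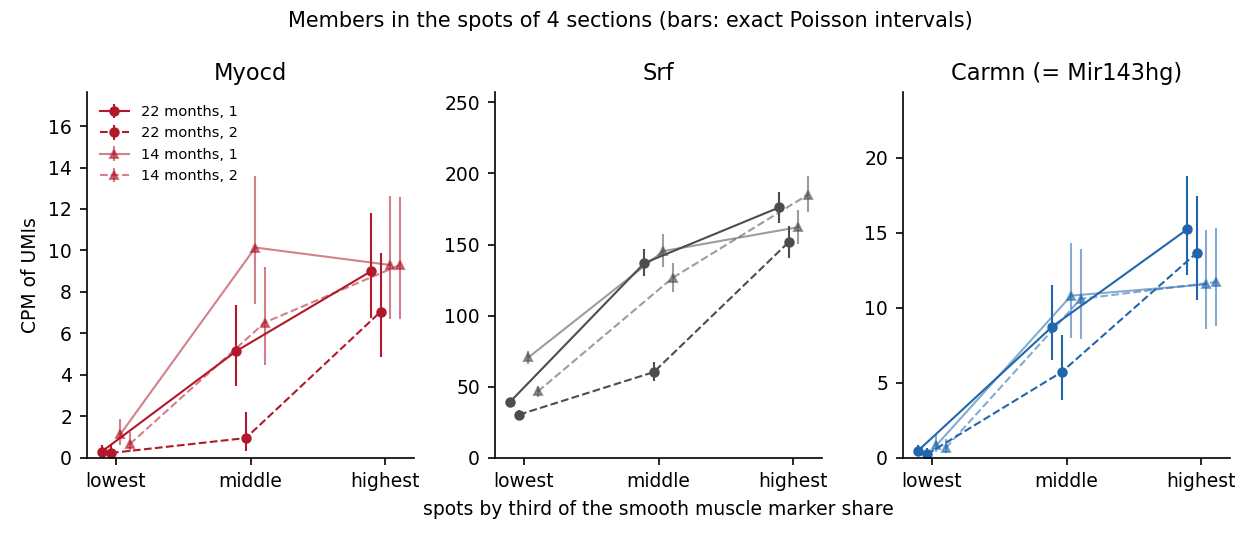
CPM of Myocd, Srf and Carmn (vertical axes from 0) in spots of the lowest, the middle and the highest group by smooth muscle marker share (horizontal axis) in each of 4 sections, with exact 95% Poisson intervals. All lines end higher in the highest group than they start in the lowest, and the second 22-month section is lowest in the middle group.

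Age was not used to choose the members, so it was tested, and no member tested was called by edgeR or DESeq2. Over whole sections Myocd was 2.75 and 1.81 CPM at 22 months and 4.596 and 3.61 CPM at 14 months (log2 -0.78, SE 0.29, edgeR adjusted p = 0.275). Leaving out 1 section gave -1.08 to -0.56. Srf was 81.5 and 62.3 CPM at 22 months and 104 and 90.9 CPM at 14 months (log2 -0.38, SE 0.14, edgeR adjusted p = 0.269). Leaving out 1 section gave -0.55 to -0.24, with the smallest differences without the second 22-month or the first 14-month section. Carmn was 4.62 and 4.28 CPM against 5.01 and 4.96 CPM (log2 -0.10, SE 0.19, edgeR adjusted p = 0.821). The smooth muscle list overlapped between the ages, at 21841 and 22682 CPM at 22 months and 24546 and 17592 CPM at 14 months, and so did the fibroblast list. The urothelial list was higher at 22 months (12158 and 13060 CPM against 11057 and 10030 CPM), as was the pericyte list (456 and 489 CPM against 427 and 372 CPM), and their part was not tested. By groups of spots, Myocd was lower at 22 months in every group. Srf was lower in the lowest group, and its levels overlapped between the ages in the middle and highest groups. The lowest group held most of the UMIs of each section, and its part in the whole-section levels was not tested. Of 14995 genes, edgeR called 0% at an adjusted p under 0.05, 2488 had an unadjusted p under 0.05 (Myocd and Srf among them), and DESeq2 called 420.

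In whole-bladder cells, in a fit that also held whether females were pooled in, Srf had a log2 difference of 0.39 between the older (22 and 24 months) and younger (3 and 12 months) libraries (SE 0.14, edgeR adjusted p = 0.445), at 19.0 and 30.01 CPM against 14.7, 22.9 and 21.5 CPM. Without the term for females it was 0.17. The libraries of males alone also list fewer genes (27775 against 27998) and are shallower. Their medians were 2488 and 1823 UMIs, against 10324.5 to 15752.5 in the others. The term for females cannot be told apart from these differences. The fibroblast list ran from 1800 to 39956 CPM over the libraries, and its part was not tested. Mir143hg had a difference of 0.63 (SE 0.42, edgeR adjusted p = 0.724), at 7.13 and 2.03 CPM against 8.32, 0.977 and 0.478 CPM, with -0.13 without the 24-month library and values from 0.38 (without the second 12-month library) to 1.31 (without the 3-month library) as each of the others was left out. Both sets of libraries overlapped. Myocd had too few UMIs to be tested. Of 14751 genes, edgeR called 0%, 1429 had an unadjusted p under 0.05 (Srf among them), and DESeq2 called 224.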

How the data were processed

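The authors deposited 1 bulk table of reads counted for each symbol, and per the submitters' processing notes reads were counted with featureCounts of the Subread package on mm10. Cell, nucleus and spot tables are UMI counts (molecule tags, each counted once) as the authors deposited them, from Cell Ranger and Space Ranger per the same notes. Versions are not given in the sources used here. All 6 sample columns of the bulk table were used. The members and gene lists were chosen with earlier results of these data known. One further pathway list is not reported here.

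Bulk counts were tested with edgeR 4.0.16 (quasi-likelihood, robust, TMM, filterByExpr, two-sided, Benjamini-Hochberg over all genes, threshold 0.05), and the procedure was tested on simulated data, where it missed more 2-fold than 8-fold changes and more of its calls were false than the threshold allows. SE is the absolute log2 difference divided by the square root of F. Section and whole-bladder counts were summed per sample, without mitochondrial genes, and tested the same way. DESeq2 1.42.0 was an alternative.

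Barcodes under 500 UMIs or over 20% mitochondrial UMIs were dropped, the highest Scrublet scores were removed as doublets (0.8% of cells for every 1000 barcodes), and each library was clustered with scanpy 1.11.5 (2000 variable genes without the members, 30 components, 15 neighbours, Leiden resolution 1). The mitochondrial limit does not act on the 2 male whole-bladder tables, which list those genes at 0. Clusters were named from marker lists (score of at least 0.25, at least 3 markers in 10% of cells and raised 2-fold). Equal scores were taken in alphabetical order of class. A cluster stayed unnamed where another class had more markers among its 10 leading genes. It also stayed unnamed where it was shallow for its library and had no marker of its class among them. Libraries of cells and nuclei shared at most 64 barcodes pairwise. Intervals are exact Poisson or Clopper-Pearson at 95% and cover counting error only. Where no UMI was found, the share of cells it allows is 3 counts of the number of cells. CPM use all UMIs or reads of the summed cells, spots or library.

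Named genes were, per list and direction, the 3 with the largest change among those called, without overlap and with a mean of at least 10 CPM, plus all myocardin-family and ternary complex factors, and the 5 most alike profiles per member.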

Additional observations from a re-analysis of the deposited data

How the results depend on the processing

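The falls of Carmn and Myocd in bulk kept their direction under all 12 other fits, and so did Srf. Scaling by library totals alone gave -0.37 for Srf, and -4.66 for Carmn and for Mir143hg. Leaving out 1 library at a time gave -4.61 to -4.50 for Carmn, -3.45 to -3.18 for Myocd and -0.32 to -0.22 for Srf, and 8128 to 9782 genes called. Removing the Mir143hg row left 9797 called genes of 9798. Asking also for an absolute log2 difference over 1 left 3636 genes called, and left 3 SRF cofactors and partners, 7 cytoskeletal targets, 1 gene upstream of Myocd and 4 targets of miR-143 and miR-145. Fewer genes can pass it by construction. With the replicate number as a block, 10011 genes were called. Same-numbered libraries had correlated deviations of 0.203, 0.344 and -0.070, so the numbers were not taken as pairs. Of 34 named genes, 4 (Mkl2, Mamstr, Elk3 and Tead1) lost their call in some fit and none changed sign.

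In nuclei with at least 1000 UMIs Carmn in the smooth-muscle-like class was 5215 CPM, and it was 4053 CPM when nuclei were taken by their own marker share, with 481 CPM in the other nuclei. With doublets kept it was 136 CPM in the detrusor-only library. The cause of these shifts was not tested. With spots divided into 2 equal groups, the median ratio of high to low spots was 8.97 for Myocd, 9.48 for Carmn and 3.20 for Srf, against 22.0, 26.1 and 4.24 with 3 groups. In whole-bladder cells the Mir143hg difference ran from -0.13 to 1.31 as libraries were left out. Srf gave 0.17 without the sex term, which cannot be told apart from the gene list and depth of the libraries. Counts limit the rest: Myocd had 41 to 101 UMIs per section and at most 8 per whole-bladder library, too few to follow it by age in cells.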
